A study of Mus musculus with 6 samples.

Results

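Genes of the Bcl2 family, the proteins that set whether a cell survives or dies through its mitochondria, were examined in mammary cells. All mice carried a floxed insulin receptor gene, with or without Cre recombinase, and the insulin receptor transcript was lower with Cre. The set was 10 genes chosen by symbol: the survival genes Bcl2, Bcl2l1 and Mcl1, the effector genes Bax and Bak1, and the BH3-only genes Bcl2l11, Bbc3, Pmaip1, Bad and Bid. Of these, 8 had a probe set that names that gene alone, among 20805 genes so named on the array, and each had 1 such probe set. Bcl2 and Bad appeared only at probe sets that also name another gene, so their values are given apart and are not assigned to a single gene. The cells came from pregnant females of 2 strains. IRfl/fl Cre+ females carry a floxed insulin receptor gene and Cre recombinase under the BLG (beta-lactoglobulin) promoter, a milk protein promoter. IRfl/fl Cre- females carry the same floxed gene without Cre. Females of both strains were mated with CD1 males, killed on day 13.5 of pregnancy, and their mammary cells freed with collagenase. Each genotype had 3 mice and 1 Affymetrix MoGene 1.0 ST array per mouse, called here Cre+ 5, 6 and 7 and Cre- 1, 2 and 4 after the mouse numbers. Because Cre depends on a milk protein promoter, cells of the digest that do not use that promoter would keep the receptor.

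In this family the survival proteins hold the effectors Bax and Bak in check on the outer mitochondrial membrane. When BH3-only proteins block the survival proteins or engage the effectors directly, Bax and Bak open the membrane, cytochrome c escapes and caspases are activated. Insulin and IGF signals act on this balance through Akt, which phosphorylates Bad and restrains the FoxO factors that activate Bcl2l11 and Bbc3. In the mammary gland the family is best known for the removal of milk-secreting cells at involution, when the gland regresses after weaning. The comparison asked whether their transcripts differed between the genotypes in mid-pregnancy, while the alveoli are forming.

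None of the 8 members with a probe set of their own passed the test across all genes. In limma with Benjamini-Hochberg adjustment over 16921 tested probe sets, 0 of the 8 members had an adjusted p under 0.05, where 4.17% of all tested probe sets did. The effector gene Bak1 came closest, with 1.34-fold more signal in Cre+ cells and an adjusted p of 0.0556. At an unadjusted p under 0.05 there were 2 members, Bak1 and Bid, both higher in Cre+ cells, against 20.0% of all tested probe sets. The values of the genotypes did not overlap for the same 2 of 8 members, where 25.7% of all tested probe sets did not overlap. Both shares are near those of the array as a whole. The median log2 change, Cre+ minus Cre-, was 0.00 over the members, with 4 above 0 and 4 below, and 0.00 over all tested probe sets. The median size of the change without its sign was 0.16 for the members and 0.08 for all tested probe sets. These 2 medians are not matched for level. By mean level, members ranged from percentile 57.3 to 96.1 of all probe sets, and the tested probe sets reached down to percentile 30. All 8 members with a probe set of their own passed the filter on dim probe sets. Bcl2 and Bad, which have none, are missing from these counts.

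The whole series gives the frame for these values. Insr, the targeted gene, had 55.2, 47.7 and 71.2 intensity units on Cre+ 5, 6 and 7, against 106, 104 and 122 on Cre- 1, 2 and 4 at 1 of its 2 probe sets, a 1.93-fold lower level in Cre+ cells (adjusted p = 0.0231 in limma). At its other probe set Cre+ cells were 1.43-fold lower (adjusted p = 0.0285). Whether these probes lie inside the deleted part of the gene is not given in the sources used here. Both calls were lost when Cre+ 5, Cre+ 6, Cre- 2 or Cre- 4 was left out, with adjusted p up to 0.106 in limma. Those omissions also lowered the count of calls over the whole array, from 344 higher and 362 lower. It was 15 and 31 without Cre+ 5 and 25 and 27 without Cre+ 6. It was 58 and 60 without Cre- 2 and 152 and 113 without Cre- 4. The labels call the samples mammary alveolar cells. Alveolar markers were present and lower in Cre+ cells, with 10 of 12 past the threshold and a mean log2 level from 8.75 to 8.96 on Cre+ arrays and from 9.97 to 10.2 on Cre- arrays. Basal markers were present too, with 4 of 10 higher and a mean from 7.98 to 8.06 on Cre+ arrays and from 7.13 to 7.71 on Cre- arrays. Of 9 fibroblast markers 1 was higher, with means from 6.38 to 6.86 in Cre+ and from 5.64 to 6.61 in Cre- cells, and of 9 macrophage markers 2 were higher, from 5.95 to 6.15 in Cre+ and from 5.43 to 6.03 in Cre- cells. Of the other lists, 0 of 8 luminal structure, 0 of 6 endothelial and 0 of 5 tested adipocyte markers passed in limma, with 2, 1 and 1 at an unadjusted p under 0.05. In such mixed samples, fewer cells of a type and less RNA per cell cannot be told apart. The part of these markers in the differences of the Bcl2 family was not tested. All intensities are linear units after robust multi-array averaging by the authors, where the dimmest value of any probe set was 18.7 and probe sets with a mean below 22.4 were not tested.

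Among the survival genes, neither measured member differed between the genotypes beyond the spread of the arrays. Bcl2l1 encodes Bcl-xL, a survival protein of many epithelia. Its intensity was 163, 137 and 139.9 on Cre+ 5, 6 and 7, against 141, 165 and 168 on Cre- 1, 2 and 4. The groups overlapped, with Cre+ 5 at the level of Cre- 2 and Cre- 4 and Cre- 1 at the level of Cre+ 6 and Cre+ 7. The log2 change was -0.11 (SE 0.11, n = 3 and 3, adjusted p = 0.650 in limma), and its 95% interval ran from 0.781-fold to 1.10-fold. Leaving out single arrays moved the change between -0.19, when Cre+ 5 or Cre- 1 was omitted, and -0.06, when Cre+ 6 or Cre- 4 was, and with the mean of the luminal structure markers as a covariate it was -0.0084.

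Mcl1 encodes a short-lived survival protein that lymphocytes and mammary epithelium both need. It gave 350.2, 433 and 559.5 units on Cre+ 5, 6 and 7, against 582, 463 and 472 units on Cre- 1, 2 and 4. The groups overlapped, and the highest array of each genotype was Cre+ 7 and Cre- 1. The means were 448 ± 105 units in Cre+ cells and 506 ± 66.4 units in Cre- cells (SD, n = 3 each). The log2 change was -0.19 (SE 0.17, adjusted p = 0.607 in limma), with a 95% interval from 0.663-fold to 1.15-fold. Omitting Cre+ 5 gave -0.03, omitting Cre- 1 gave -0.09 and omitting Cre+ 7 gave -0.37. The change was -0.39 with the luminal structure covariate (adjusted p = 0.120 in limma). Within the Cre+ mice the highest array was 1.60-fold above the lowest, more than the 1.14-fold between the genotype means.

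Bcl2 itself was read only through 2 probe sets that also name D630008O14Rik. The brighter one had 40.9, 40.9 and 49.2 units on Cre+ 5, 6 and 7, against 66.3, 40.2 and 39.0 units on Cre- 1, 2 and 4. A single array, Cre- 1, stood above the other 5, and Cre+ 7 was next. With all probe sets tested whatever their names, a setting in which 3.27% of probe sets were called, the log2 change was -0.11 (SE 0.20, adjusted p = 0.830 in limma). The other probe set lay between 21.4 and 23.0 units on all 6 arrays, near the floor of the array, and was too dim to test.

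**Figure D1:**
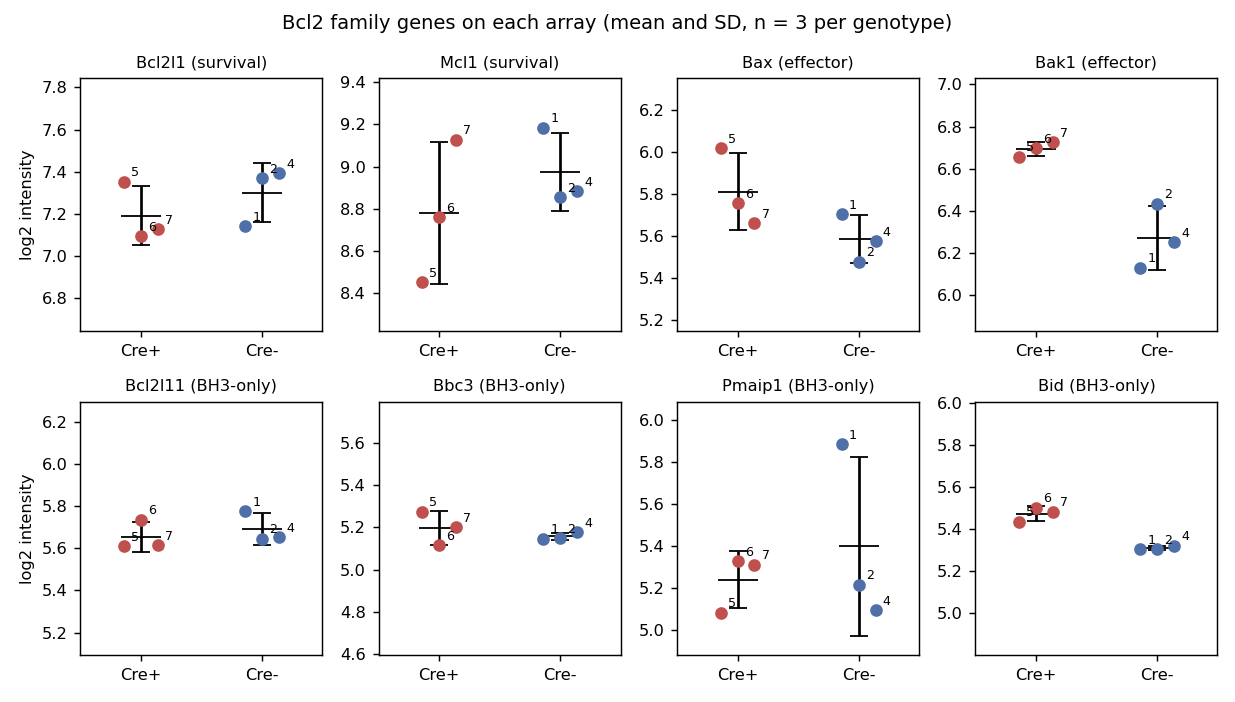
Log2 intensity of the 8 Bcl2 family genes with a probe set of their own, one panel per gene, each panel spanning the same height on the log2 axis. Points are single arrays with their mouse number, bars are the mean and SD of 3 arrays, and Cre+ is on the left of each panel. Bak1 and Bid are the panels in which all Cre+ points lie above all Cre- points.

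The effectors were both higher on average in Cre+ cells, and Bak1 had the largest difference of the family. Bak1 encodes Bak, a pore-forming protein that sits in the mitochondrial membrane in healthy cells. Its intensity was 101, 104 and 106 on Cre+ 5, 6 and 7, against 70.0, 86.4 and 76.1 on Cre- 1, 2 and 4. All 3 Cre+ arrays lay above all 3 Cre- arrays, and the Cre+ arrays lay close together, with a mean of 104 ± 2.51 units in Cre+ cells and 77.5 ± 8.28 units in Cre- cells (SD, n = 3 each). The log2 change was 0.42 (SE 0.10, adjusted p = 0.0556 in limma), with a 95% interval from 1.15-fold to 1.57-fold before adjustment for the number of genes. By unadjusted p it stood at position 799 of the 16921 probe sets. An exact permutation test on the arrays gave 0.1, two-sided, and no smaller p is possible with 3 arrays per genotype. The authors' deposited table lists a ratio of 1.34 for Bak1 with an unadjusted p of 0.0065. The adjusted p fell on either side of the threshold with the settings, from 0.0292 with the luminal structure markers as a covariate to 0.157 without Cre+ 5, and the log2 change stayed between 0.34 and 0.52. The other 2 probe sets that carry the name Bak1 also name Ggnbp1, and both were dimmer. The first had means of 33.4 units in Cre+ cells and 35.6 units in Cre- cells. The second had 23.3 and 23.0 units, near the floor of the array, where a difference can hardly show. Neither showed the difference seen at the Bak1 probe set. The log2 change was -0.09 at the first (SE 0.10, adjusted p = 0.675 in limma) and 0.02 at the second (SE 0.03, adjusted p = 0.778 in limma).

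Bax encodes the effector that moves from the cytosol to mitochondria when a cell is told to die. It had 64.8, 54.1 and 50.6 units on Cre+ 5, 6 and 7, against 52.1, 44.6 and 47.7 units on Cre- 1, 2 and 4. The groups overlapped, since Cre- 1 was above Cre+ 7. The log2 change was 0.23 (SE 0.12, adjusted p = 0.336 in limma), with a 95% interval from 0.971-fold to 1.41-fold. Without Cre+ 5, the highest array, the change was 0.12.

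Among the BH3-only genes, Bid and Pmaip1 had differences of like size in opposite directions, steady over the arrays for Bid and resting on 1 array for Pmaip1, and Bcl2l11 and Bbc3 had smaller ones. Bid links death receptors to mitochondria once caspase 8 has cleaved it. It had 43.3, 45.3 and 44.7 units on Cre+ 5, 6 and 7, against 39.5, 39.6 and 40.0 units on Cre- 1, 2 and 4. The groups did not overlap, and the arrays within a genotype differed by at most 1.05-fold. The difference was small, 44.4 ± 1.05 units in Cre+ cells and 39.7 ± 0.267 units in Cre- cells (SD, n = 3 each), or 1.12-fold. In limma the log2 change of 0.16 (SE 0.07) had an unadjusted p of 0.0420 and an adjusted p of 0.227. The authors' deposited table has a ratio of 1.12 for Bid and an unadjusted p of 0.0016. If 16 units of every intensity were background, the log2 change of Bid would be 0.26 in place of 0.16 (adjusted p = 0.222 in limma).

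The promoters of Bak1 and Bid are shown because these were the members whose genotypes did not overlap. Each is the RefSeq sequence from 250 bases before to 50 bases after the transcript start, 5′ to 3′ on the strand of the gene, build GRCm38.p6. Capitals mark the GC box letters GGGCGG, and lower case is all other sequence. Bak1 lies at chr17:27028578-27028877 on the minus strand, and Bid at chr6:120916775-120917074 on the minus strand.
Bak1: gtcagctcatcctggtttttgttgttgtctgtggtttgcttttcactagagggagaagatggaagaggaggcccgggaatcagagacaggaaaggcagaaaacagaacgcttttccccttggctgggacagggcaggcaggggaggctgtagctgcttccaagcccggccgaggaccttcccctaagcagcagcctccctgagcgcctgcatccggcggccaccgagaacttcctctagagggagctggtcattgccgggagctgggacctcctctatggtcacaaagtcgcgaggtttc
Bid: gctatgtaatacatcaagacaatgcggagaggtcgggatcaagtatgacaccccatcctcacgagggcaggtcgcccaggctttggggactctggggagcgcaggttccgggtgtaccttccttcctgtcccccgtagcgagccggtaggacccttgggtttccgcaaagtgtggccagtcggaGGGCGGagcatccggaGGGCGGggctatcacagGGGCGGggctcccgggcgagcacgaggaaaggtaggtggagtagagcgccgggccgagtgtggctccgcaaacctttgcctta

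Bid has 3 GC boxes, beginning at positions -66, -50 and -33 from the transcript start, and Bak1 has none in this window. Of all 32851 promoters of this length, 35.7% hold GGGCGG on either strand. Promoters of 9 members were in the RefSeq table, in 15 entries, and 10 of the entries hold a GC box. Pmaip1 had no entry, so its promoter was not searched. Entries of Bbc3 overlap in part, so the same GC boxes can fall in more than 1 of them. The FoxO letters GTAAACA were in 2 of the 15 entries, 1 of Bcl2l11 and 1 of Bbc3, and in 3.65% of all promoters. The E2F letters TTTCCCGC or TTTGGCGC were in 0 of 15 entries and in 1.56% of all promoters. The CCAAT letters were in 4 of 15 entries and in 37.4% of all promoters, and a p53 half-site was in 1 entry, that of Bax, and in 8.36% of all promoters. The searches covered both strands, and no motif of the list contains another. They describe letters in a short window and not binding.

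Bcl2l11 and Bbc3 encode Bim and Puma, BH3-only proteins whose genes FoxO factors activate when Akt is inactive. Bcl2l11 had 48.9, 53.3 and 48.9 units on Cre+ 5, 6 and 7, against 54.8, 50.1 and 50.3 units on Cre- 1, 2 and 4. Bbc3 had 38.7, 34.7 and 36.8 units on Cre+ 5, 6 and 7, against 35.4, 35.5 and 36.2 units on Cre- 1, 2 and 4. For both genes the arrays of the genotypes were interleaved. The log2 change was -0.04 for Bcl2l11 (SE 0.08, adjusted p = 0.860 in limma), with a 95% interval from 0.851-fold to 1.11-fold. It was 0.04 for Bbc3 (SE 0.07, adjusted p = 0.807 in limma), with a 95% interval from 0.925-fold to 1.14-fold. The 95% intervals of Bcl2l11, Bbc3 and Bid were the narrowest of the family on the scale as deposited. With 16 units subtracted, the SE was 0.119 for Bcl2l11, 0.120 for Bbc3 and 0.107 for Bid. It was then 0.119 for Bak1 and 0.120 for Bcl2l1, so the narrowness for Bcl2l11 and Bbc3 depended on that scale. These values concern transcripts and not protein.

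Pmaip1 encodes Noxa, a BH3-only protein that binds Mcl1 and is induced by p53 and by stress. It had 33.9, 40.1 and 39.7 units on Cre+ 5, 6 and 7, against 59.0, 37.2 and 34.2 units on Cre- 1, 2 and 4. A single array, Cre- 1, stood above the other 5, which overlapped. The log2 change was -0.16 (SE 0.20, adjusted p = 0.731 in limma), and without Cre- 1 it was 0.09 (adjusted p = 0.704 in limma), so the sign rested on that array. With the luminal structure covariate it was -0.43 (adjusted p = 0.0473 in limma). That covariate was itself lowest among the Cre- arrays on Cre- 1, at 8.71 against 9.23 on Cre- 2 and 9.39 on Cre- 4. This value therefore does not stand apart from that array. Bad, whose protein Akt inactivates by phosphorylation, was read only at 2 probe sets that also name Gpr137. At these the log2 changes were -0.12 (SE 0.10, adjusted p = 0.595 in limma) and 0.03 (SE 0.08, adjusted p = 0.870 in limma), with overlapping groups at both.

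**Figure D2:**
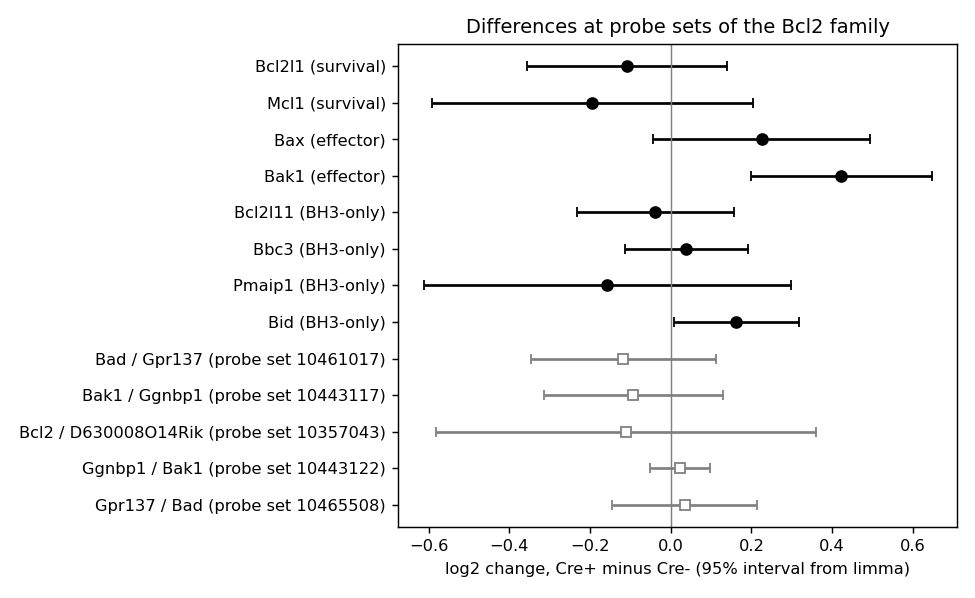
Log2 change, Cre+ minus Cre-, at the 8 probe sets that name a member alone (filled circles) and at 5 probe sets that name a member beside another gene (open squares), with the 95% interval from limma. The intervals of Bak1 and Bid lie above 0 before adjustment for the number of genes tested, and all others include 0.

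The spread within a genotype followed the arrays for some members. Mcl1, Pmaip1 and the brighter Bcl2 probe set were each highest on Cre- 1. Mcl1 and that Bcl2 probe set were second highest on Cre+ 7. Bcl2l11 was also highest on Cre- 1, by a small margin (54.8 units, with 53.3 on Cre+ 6 next). On the same arrays the mean log2 level of 11 T and B lymphocyte markers was 4.92, 5.53 and 6.47 on Cre+ 5, 6 and 7, against 7.17, 5.48 and 5.32 on Cre- 1, 2 and 4. Cre- 1 and Cre+ 7 are thus the arrays with the most lymphocyte signal in their genotype. The same arrays had the most endothelial signal in their genotype, with mean log2 levels of 6.51 on Cre- 1 and 6.52 on Cre+ 7. They also had the least luminal structure signal, with 8.71 on Cre- 1 and 8.63 on Cre+ 7. Which of these cell types bears on the members was not tested. None of the 11 lymphocyte markers passed the threshold between genotypes in limma, and 0 had an unadjusted p under 0.05. With the mean of these markers as a covariate, the log2 change of Mcl1 was -0.10 (SE 0.10) in place of -0.19 (SE 0.17), and that of Pmaip1 was -0.05 (SE 0.10) in place of -0.16 (SE 0.20). The part of lymphocytes in the level of the Bcl2 probe set was not tested. Bak1 was highest on Cre+ 7 and lowest on Cre+ 5 among the Cre+ arrays, as the markers were, and lowest on Cre- 1 among the Cre- arrays, where the markers were highest. With the covariate its log2 change was 0.40 (adjusted p = 0.0325 in limma). Without Cre+ 7 and Cre- 1 together, the log2 change of Bak1 was 0.34 (adjusted p = 0.118 in limma).

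**Figure D3:**
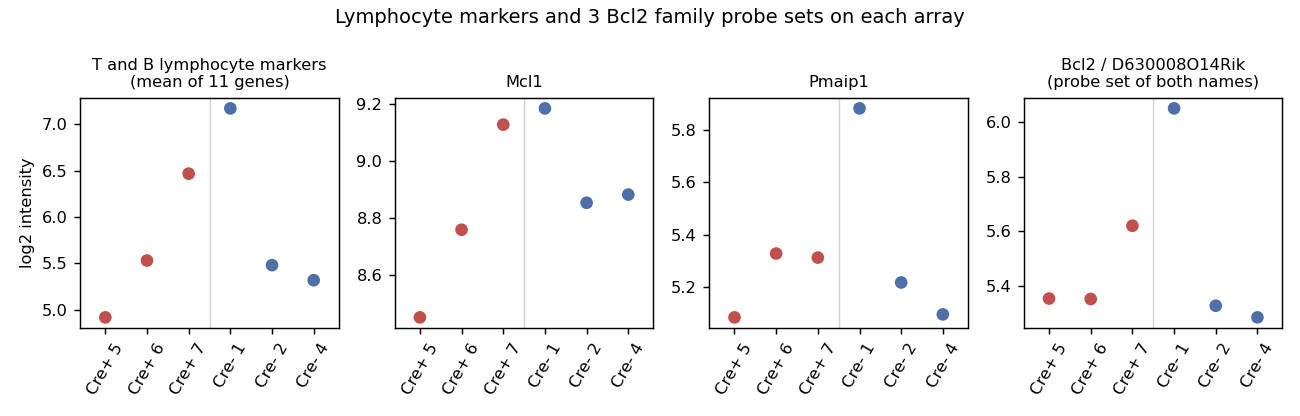
Log2 intensity on each array of the mean of 11 T and B lymphocyte markers, of Mcl1, of Pmaip1 and of the brighter probe set that names Bcl2 and D630008O14Rik. Each point is 1 array, Cre+ arrays are on the left, and the axes differ between panels. Cre- 1 is the highest array in all 4 panels.

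Genes that work with the family were read next, in 8 lists with 70 tested genes. Of these 3 were higher and 4 lower in Cre+ cells, or 10% called, beside 4.17% called among all tested probe sets. By direction the array-wide shares were 2.03% higher and 2.14% lower. The lists were chosen with earlier results of these data known, so their share of calls is not independent of these data. The closest relatives stood first. Bmf, a BH3-only gene linked to death of epithelial cells that lose their attachment, had 95.4, 85.1 and 75.7 units on Cre+ 5, 6 and 7, against 131, 167 and 158 units on Cre- 1, 2 and 4. All 3 Cre+ arrays lay below all 3 Cre- arrays, a 1.78-fold lower level (log2 change -0.83, SE 0.12, adjusted p = 0.0195 in limma). It was the 1 gene called among 8 further death-promoting or BH3-bearing relatives, whose median log2 change was 0.05. The call was lost without Cre+ 5, Cre+ 6, Cre- 2 or Cre- 4, with adjusted p up to 0.0837. Bcl2l2, which encodes the survival protein Bcl-w, was the 1 tested gene among 5 further survival relatives. It had 43.2 ± 1.50 units in Cre+ cells and 53.9 ± 3.53 units in Cre- cells (SD, n = 3 each), with groups that did not overlap and an adjusted p of 0.0802 in limma. Its unadjusted p was 0.00548, and it was called in 3 of 18 alternatives. The 3 listed Bcl2a1 genes appeared only at probe sets that name several genes and are not given, and Bcl2l10 was too dim to test.

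Downstream of the mitochondria, 1 of 11 tested genes of caspases and the apoptosome was called. Casp6, an effector caspase, was 1.56-fold lower in Cre+ cells, at 61.2 ± 1.42 units in Cre+ cells and 96.0 ± 11.5 units in Cre- cells (SD, n = 3 each; adjusted p = 0.0241 in limma). Casp6 kept its call in just 1 of the 6 omissions, that of Cre- 1, and its adjusted p without Cre+ 5, Cre+ 6, Cre+ 7, Cre- 2 or Cre- 4 reached 0.0952. The list's median log2 change was -0.08. Among 4 inhibitors of apoptosis none was called and 1 had an unadjusted p under 0.05, and 1 was called in 8 of 18 alternatives, the omission of Cre+ 7 among them. The gene with the unadjusted p under 0.05 was Birc3, which encodes cIAP2, with 90.4 ± 13.1 units in Cre+ cells and 128 ± 6.59 units in Cre- cells (SD, n = 3 each; log2 change -0.52, adjusted p = 0.0540 in limma). Xiap, the direct caspase inhibitor, had a log2 change of -0.18 (SE 0.11, adjusted p = 0.431 in limma). Among 9 death receptor genes none was called and 2 had an unadjusted p under 0.05, and 1 was called in 4 of 18 alternatives. Tnfrsf10b, the mouse TRAIL receptor, had a log2 change of 0.32 (SE 0.08, adjusted p = 0.0629 in limma), and Tradd, an adaptor of the TNF receptor, one of -0.25 (SE 0.10, adjusted p = 0.198 in limma).

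Upstream of the family, 2 of 14 tested genes of p53 and its targets rose and none fell, with a list median of 0.04. The number of genes called in this list was 5 with the luminal structure covariate, 4 without Cre+ 7 and Cre- 1 together, 1 without Cre- 4 and 0 without Cre+ 5 or without Cre+ 6. Phlda3, a p53 target whose protein competes with Akt for membrane lipids, was 1.73-fold higher, at 105 ± 10.1 units in Cre+ cells and 60.5 ± 4.32 units in Cre- cells (SD, n = 3 each; adjusted p = 0.0134 in limma). Perp, a membrane protein of desmosomes that p53 and p63 activate, was 1.81-fold higher, at 224 ± 33.7 units in Cre+ cells and 124 ± 17.3 units in Cre- cells (SD, n = 3 each; adjusted p = 0.0241 in limma). The p63 gene Trp63, a basal cell marker named after its values were seen, was higher on the same arrays (log2 change 0.67, adjusted p = 0.0267 in limma), and its part in the rise of Perp was not tested. Phlda3 lost its call without Cre+ 5 or Cre+ 6, with adjusted p up to 0.0703 in limma. Perp lost its call without Cre+ 5, Cre+ 6 or Cre- 4, with adjusted p up to 0.0934 in limma. These omissions also lowered the count of calls over the whole array. Over the 18 alternatives the log2 change stayed between 0.74 and 0.99 for Phlda3 and between 0.76 and 0.98 for Perp. Genes named after their values were seen are Trp53, the p53 gene (0.38, SE 0.11, adjusted p = 0.101 in limma), and Cdkn1a, its target p21 (0.06, SE 0.03, adjusted p = 0.401 in limma). Cdkn1a had means of 23.9 units in Cre+ cells and 22.9 units in Cre- cells. These lie near the floor of the array, where a difference can hardly show.

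Of 15 tested regulators and protein partners of the members, 1 rose. Dynll1 encodes a dynein light chain that binds Bim and Bmf, and it was 1.38-fold higher in Cre+ cells, at 351 ± 30.9 units in Cre+ cells and 253 ± 20.3 units in Cre- cells (SD, n = 3 each; adjusted p = 0.0420 in limma). This call was lost when any single array was left out, with adjusted p from 0.0578 to 0.143 in limma. It was also lost without the intensity filter, with median centring, and without Cre+ 7 and Cre- 1 together. Dynll1 was thus called in 9 of 18 alternatives. The FoxO genes, named after their values were seen, had log2 changes of 0.20 for Foxo1 (SE 0.09, adjusted p = 0.254 in limma) and -0.29 for Foxo3 (SE 0.13, adjusted p = 0.263 in limma).

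Of 8 tested genes of cell death at mammary involution, 2 fell and none rose, with a list median of -0.10. Ctsl, the lysosomal protease cathepsin L, was 2.01-fold lower, at 159 ± 8.95 units in Cre+ cells and 321 ± 34.4 units in Cre- cells (SD, n = 3 each; log2 change -1.01, adjusted p = 0.00556 in limma). It passed whichever array was left out, with adjusted p from 0.00825 to 0.0443. Tgfb3, a cytokine of early involution, was 2.50-fold lower, at 151 ± 31.0 units in Cre+ cells and 382 ± 99.98 units in Cre- cells (SD, n = 3 each; adjusted p = 0.0267 in limma). Tgfb3 likewise kept its call in 1 of the 6 omissions, that of Cre- 1, and its adjusted p reached 0.102 in the others. On the same arrays the alveolar markers were lower and the basal markers higher, as given above, and their part in these falls was not tested.

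**Figure D4:**
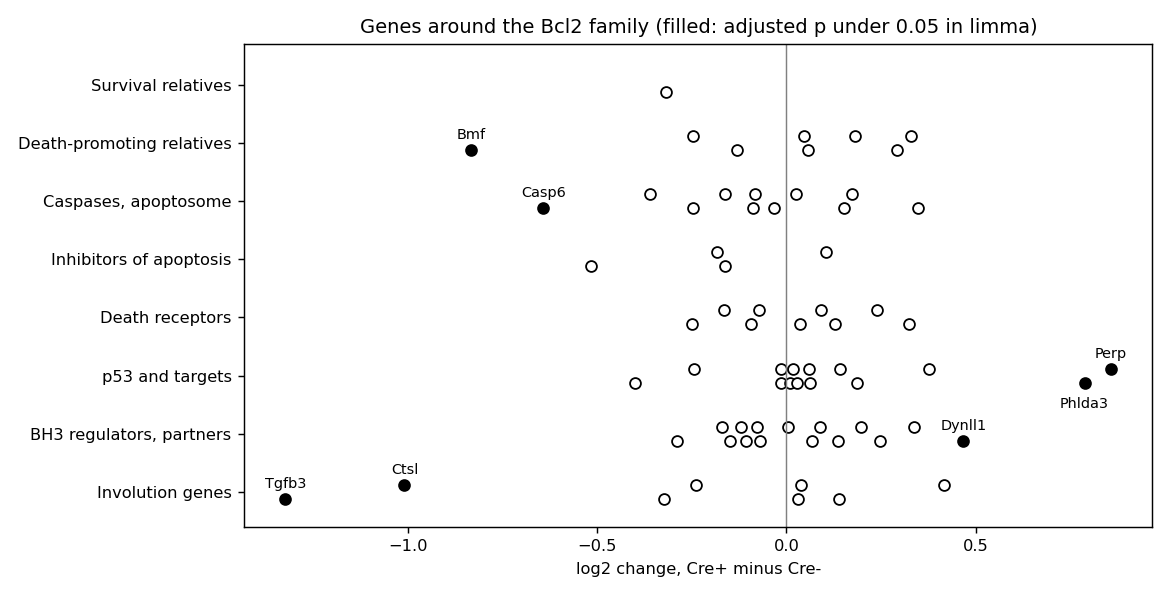
Log2 change, Cre+ minus Cre-, of the 70 tested genes in 8 lists around the Bcl2 family, one row per list, with points offset up and down only for legibility. Filled points passed an adjusted p under 0.05 in limma, and these are Bmf, Casp6, Phlda3, Perp, Dynll1, Ctsl and Tgfb3.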

How the data were processed

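The authors' deposited intensity values, 1 per probe set and array, were made by RMA over core exons in Expression Console, per the labels. For the software version, build and annotation, nothing is given in the sources used here. They are on a linear scale from 18.7 to 10919, with array medians from 28.4 to 29.3, and both deposited tables hold equal values (largest difference 0). Per the file headers, the authors' table also holds a p-value from a T test and a fold ratio. Both were recomputed from the intensities, and 100% matched within 2e-04 and 0.01. Its 4 columns of group means and errors were not used. For arrays, the number of arrays (3 per group) limits the precision, and no depth applies.

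Log2 of the intensity was taken. Probe sets naming 1 gene (22984 of 28853) with a mean at or above the 30th percentile (log2 4.48) were fitted together with limma 3.58.1 in R 4.3.3 (eBayes with an intensity trend), two-sided, Cre+ minus Cre-, with Benjamini-Hochberg adjustment and a threshold of 0.05. A member was matched by its exact symbol. For list genes, an older symbol was used where RefSeq pairs it with the listed one, and the probe set with the highest mean was taken. Of 82 genes in the 8 lists, 73 were named alone and 70 tested. Named genes are all members, Insr, and in each list the genes past the threshold (the 5 smallest p if over 5), or the 2 smallest p where none passed. The fit was also run on simulated data with noise drawn independently for each probe set. That run does not speak to variation shared between genes, and no result here rests on it. Members and lists were chosen with earlier results of these data known. Mice were taken as replicates as the labels give them, with no litter, scan or batch stated. Alternatives changed the filter, background, scaling, variance model, covariates and arrays.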

Additional observations from a re-analysis of the deposited data

How the results depend on the processing

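Of the 8 members with a probe set of their own, 0 were called in the main setting. None was called when any single array was left out (0 to 0). The same held without the intensity filter, with 16 units subtracted, and with median centring, quantile normalization or array weights. It also held with all probe sets, and when Cre+ 7 and Cre- 1 were both omitted. The count was 1, Bak1, with the filter at the 50th percentile (adjusted p = 0.0443 in limma), without the intensity trend (0.0462), with robust variances (0.0490) and with the lymphocyte markers as a covariate (0.0325). It was 2 with the luminal structure markers as a covariate, namely Bak1 (0.0292) and Pmaip1, lower (log2 change -0.43, adjusted p = 0.0473). The cause of these moves was not tested. The luminal structure mean was lowest among the Cre- arrays on Cre- 1, where Pmaip1 was highest. Bak1, Bax, Bid and Bbc3 stayed above 0 and Bcl2l1 and Mcl1 below 0 in all 18 alternatives. Leaving out single arrays moved the log2 change of Bcl2l11 between -0.080 and 0.0042 and that of Pmaip1 between -0.309 and 0.0853, and the sign turned only when the array omitted was Cre- 1. With Cre+ 7 omitted as well, they were 0.0241 and 0.0497. Leaving out arrays gave a log2 change of 0.35 to 0.50 for Bak1 and 0.15 to 0.18 for Bid. The array-wide count of called probe sets, 344 higher and 362 lower, was 15 and 31 when Cre+ 5 was omitted, 25 and 27 for Cre+ 6, 143 and 148 for Cre+ 7, 58 and 60 for Cre- 2, 152 and 113 for Cre- 4 and 340 and 441 for Cre- 1. It was 454 and 500 with Cre+ 7 and Cre- 1 both omitted, 722 and 715 with array weights, 873 and 925 with the lymphocyte covariate and 671 and 867 with the luminal one. The caspase list had up to 3 calls (lymphocyte covariate) and the death-promoting relatives and the regulators up to 2 each. Among the accompanying calls, all 7 kept their direction in 18 of 18 alternatives. No paired analysis was possible because the mouse numbers of the genotypes do not repeat. Signal close to the floor limits Bid, Bbc3 and Pmaip1. If a constant was added before deposit, which no source states, the fold changes of all measured members are understated. With 16 units subtracted, the log2 change of Bax was 0.32 in place of 0.23 and that of Bak1 0.52 in place of 0.42.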
